A study of Mus musculus with 30 samples.

Results

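The genes of 8 hypothalamic hormones were followed in mice lacking a functional PER3 protein and in their wild-type (WT) litter mates. The members were chosen by name: Avp, Oxt, Crh, Trh, Ghrh, Sst, Gnrh1 and Kiss1. Of the 41174 probes on the array that are not controls, which carry 28146 distinct gene names, 7 have one of these names, 1 each for 7 of the genes. For Crh, the gene of corticotropin-releasing hormone, no probe was found by its symbol, by an older symbol or by a RefSeq accession, so Crh was not analysed here. All mice were adult males on a C57Bl/6J background, litter mates that were either WT or homozygous for the Per3-/- allele, in which a selection cassette replaces exon 3 of the clock gene Per3. Each mouse went through 17 cycles of 3.5 h of light and 3.5 h of dark, and the tissue was taken in the light phase of the last cycle. RNA from 1 hand-cut hypothalamic block per mouse, centred on the optic chiasm, was hybridised for 8 WT and 8 Per3-/- mice. RNA from the whole eye was hybridised for 7 WT and 7 Per3-/- mice, which makes 30 arrays in all. The numbered replicates of a genotype are separate mice.

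These genes encode peptides that neurones of the hypothalamus secrete into the blood. Vasopressin and oxytocin travel down long axons to the posterior pituitary and act on kidney, vessels, uterus and mammary gland, and vasopressin is also a product of the suprachiasmatic nucleus, the central circadian clock. The releasing and inhibiting hormones (CRH, TRH, GHRH, somatostatin and GnRH) enter the portal vessels at the median eminence and set the output of the anterior pituitary, while kisspeptin acts upstream, on the GnRH neurones. The neurones of each hormone are few and lie in particular parts of the hypothalamus, some of them shared between hormones. The amount of each mRNA in a block of tissue can therefore also depend on where the block was cut, which was not measured here. In such bulk RNA, fewer hormone neurones in a block and less mRNA per neurone cannot be told apart.

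Values are log2 signals, with 0 set at the 75th percentile of the probes on the same array, so that 1 unit is a doubling. The levels of different probes were not set against each other, because probes differ in how brightly they bind. The intensity at the 75th percentile was 1408 to 2207 in the hypothalamus and 1131 to 1644 in the eye, and 67.9% to 80.7% of the probes of an array were well above background. The labelled tissues carried their markers. In the eye, all 5 retinal genes and all 3 lens genes listed were well above background on every array, with the summed retinal signal at 7.54 to 7.86, against -4.89 to -3.49 in the hypothalamus. In the hypothalamus, 7 of 7 measured genes of the suprachiasmatic nucleus, 5 of 5 of the arcuate nucleus, 2 of 2 of the lateral hypothalamus and 3 of 3 of the preoptic area were well above background on all 16 arrays. The Per3 probe itself read -3.79 to -3.28 in WT and -4.22 to -3.59 in Per3-/- hypothalamus, with 7 of the 8 knockout values below every WT value. The Per3 difference was -0.51 ± 0.09 (SE), with an adjusted p of 0.067 by limma. Whether that probe lies inside the replaced part of the gene was not tested.

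Among the 16 hypothalamic blocks, 2 stood apart in RNA of the pituitary hormones prolactin and growth hormone. Prolactin (Prl) read 8.15 in Per3-/- mouse 1 and 4.68 in WT mouse 5, and -6.96 to -3.24 in the other 14 blocks. Growth hormone (Gh1) read 8.21 and 3.60 in these 2 blocks, and -5.39 to -3.55 in the others. The 2 were not alike: Lhb read 1.73 in Per3-/- mouse 1 but -1.87 in WT mouse 5, and Pomc 8.66 and 2.94. Cga, also on the pituitary list, was well above background in every block. The name 'blocks with pituitary hormone RNA' thus refers to Prl and Gh1. Of the 8 pituitary genes listed, 7 had a probe, and their summed signal ran from 0.42 to 5.37 in WT and from -0.01 to 9.63 in Per3-/- blocks. The genotype differences, spreads and correlations in the hypothalamus were therefore also computed without these 2 mice, and values that moved are given beside the results.

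Avp and Oxt, the 2 genes of the posterior pituitary hormones, were bright in every block, with spot intensities of 33112 to 57070 for Avp and 36649 to 63088 for Oxt and no spot marked as saturated. They are neighbours that arose by duplication and lie on opposite strands of chromosome 2, and both precursors contain a neurophysin, the carrier protein cut from the hormone. In the files' assembly (mm9), the Avp probe lies on the minus strand at chr2:130406552-130406817 and the Oxt probe on the plus strand at chr2:130402501-130402644, with 3907 bases between them. Their 60 bases span 266 and 144 bases of the genome, so each crosses an intron and reads spliced mRNA. The 2 probes are shown because they lie over the neurophysin-coding sequence, where the genes resemble each other, with the longest run of letters that they share, 15 bases, in capitals:
Avp probe: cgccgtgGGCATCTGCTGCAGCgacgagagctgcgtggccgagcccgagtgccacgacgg
Oxt probe: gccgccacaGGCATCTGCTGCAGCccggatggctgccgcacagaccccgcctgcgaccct
At the offset with the most matches, 38 of 58 overlapping bases were identical (65.5%). How much of either signal comes from the mRNA of the other gene was not tested.

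Avp is also a known output gene of the circadian clock, through an E-box at which CLOCK and BMAL1 activate and the PER and CRY proteins repress. The 250 bases before the RefSeq start of Avp (GRCm38.p6, minus strand, chr2:130582589-130582838) hold the E-box CACGTG, in capitals, whose last base lies 134 bases before the start. The 250 bases before Oxt (plus strand, chr2:130575919-130576168) are given for comparison and do not hold these letters:
Avp promoter: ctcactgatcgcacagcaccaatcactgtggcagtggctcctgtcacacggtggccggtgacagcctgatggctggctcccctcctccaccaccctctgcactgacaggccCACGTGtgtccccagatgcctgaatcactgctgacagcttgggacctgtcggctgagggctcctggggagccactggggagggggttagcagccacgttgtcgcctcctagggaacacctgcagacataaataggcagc
Oxt promoter: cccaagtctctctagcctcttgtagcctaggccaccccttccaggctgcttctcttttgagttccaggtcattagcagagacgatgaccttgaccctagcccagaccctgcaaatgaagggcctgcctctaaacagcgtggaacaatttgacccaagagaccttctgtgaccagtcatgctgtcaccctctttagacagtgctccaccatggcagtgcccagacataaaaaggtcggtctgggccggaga
The motif reads the same on both strands and occurs in 1978 of 32851 promoter windows of this length (6.02%). Windows were also at hand for Trh, Sst and Kiss1 and, with 2 starts, for Ghrh, and none of these holds the letters.

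Avp mRNA had a lower mean in Per3-/- than in WT hypothalamus, but the genotypes overlapped and the difference did not pass the test. In WT the lowest, median and highest log2 signals were 4.48, 4.65 and 4.78. In Per3-/- mice they were 4.11, 4.49 and 5.02, so 4 of the 8 knockout blocks lay below every WT block and 1 lay above them all. The means were 4.62 ± 0.10 in WT and 4.48 ± 0.29 in Per3-/- (SD, n = 8 each). The difference was -0.14 ± 0.11 on the log2 scale (SE; 95% interval -0.36 to 0.09), or -9.17% in signal, with an adjusted p of 0.991 by limma. The 1 high knockout block was that of mouse 1, in which Prl was at 8.15. Leaving out 1 mouse moved the Avp difference between -0.22 (without mouse 1) and -0.09 (without Per3-/- mouse 3). Without the 2 blocks with pituitary hormone RNA, the Avp difference was -0.21 ± 0.09 (SE; 7 mice each), with an unadjusted p of 0.030 and an adjusted p of 1.0 by limma.

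Oxt showed a similar picture with a smaller difference. Its lowest, median and highest signals were 4.63, 4.87 and 4.97 in WT and 4.36, 4.76 and 5.17 in Per3-/- mice. Of the knockout blocks, 2 lay below and 1 above the WT range. The difference was -0.10 ± 0.10 (SE), with a 95% interval of -0.31 to 0.12 and an adjusted p of 0.991 by limma. The highest Oxt signal was again that of Per3-/- mouse 1, and the difference without the 2 blocks with pituitary hormone RNA was -0.15 ± 0.09 (SE). Leaving out 1 mouse moved the Oxt difference between -0.16 (without Per3-/- mouse 1) and -0.04 (without Per3-/- mouse 7), and it was -0.06 without Per3-/- mouse 8.

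**Figure D1:**
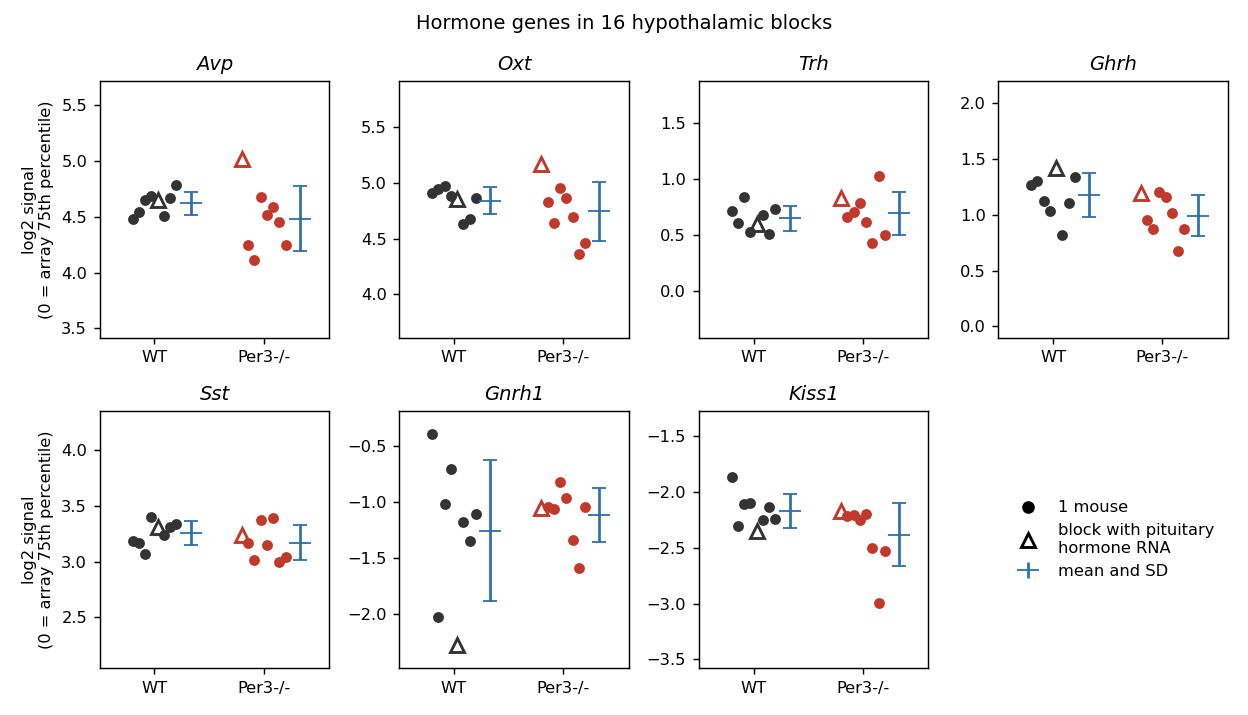
Log2 signal of the 7 hormone genes in each hypothalamic block (y axis, 0 = the array's 75th percentile) for 8 WT and 8 Per3-/- mice. Each point is 1 mouse, open triangles are the 2 blocks with pituitary hormone RNA, and bars give the mean and SD. All panels span the same number of log2 units. The genotypes overlap for every gene, Gnrh1 is widest in WT (-2.28 to -0.39) and Avp is wider in Per3-/- (4.11 to 5.02) than in WT (4.48 to 4.78).

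The releasing hormone genes Trh and Ghrh lay above the 75th percentile of their arrays, in nearly the same range in both genotypes. Trh encodes the tripeptide precursor that drives the thyroid axis, and its probe lies at chr6:92192370-92192429 on the minus strand (mm9). Its lowest, median and highest signals were 0.51, 0.65 and 0.84 in WT and 0.43, 0.68 and 1.03 in Per3-/- blocks. Trh differed between the genotypes by 0.04 ± 0.08 (SE; interval -0.12 to 0.21). Leaving out 1 mouse moved this Trh difference between -0.00 and 0.08, so it has no settled sign. Ghrh, whose neurones in the arcuate nucleus drive growth hormone release, is read at chr2:157155253-157155312 on the minus strand. Its lowest, median and highest signals were 0.82, 1.20 and 1.42 in WT and 0.68, 0.98 and 1.20 in Per3-/-, with 7 of 8 knockout blocks inside the WT range. The Ghrh difference was -0.18 ± 0.09 (SE; interval -0.38 to 0.01; unadjusted p = 0.065 and adjusted p = 0.991 by limma). Knockout Ghrh was lower on each of the 4 slides, by 0.03 to 0.45 on the log2 scale, with 2 mice of each genotype per slide, and on 3 of 4 slides without the 2 blocks with pituitary hormone RNA.

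Sst encodes somatostatin, which inhibits growth hormone release and is also made by interneurones across the forebrain. Its probe (chr16:23889776-23889835, minus strand, mm9) is printed 10 times on each array, which gives the spot-to-spot part of the error, since the spots of 1 array share RNA, labelling and hybridisation. The SD between the Sst spots of 1 array was 0.0176 to 0.0724 in the hypothalamus, with a median of 0.039, while the SD between mice of a genotype was 0.13. The lowest, median and highest Sst signals were 3.07, 3.27 and 3.40 in WT and 2.99, 3.16 and 3.39 in Per3-/- blocks. Of the knockout blocks, 3 lay below every WT block. The Sst difference was -0.08 ± 0.07 (SE; interval -0.23 to 0.06; adjusted p = 0.991 by limma), or -5.59% in signal.

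The genes of the reproductive axis were well above background in every block. Kiss1 encodes kisspeptin, made in the arcuate nucleus and, in smaller numbers of neurones in males, in the rostral periventricular area, and its probe lies at chr1:135225978-135226037 on the plus strand (mm9). Kiss1 had its lowest, median and highest signals at -2.35, -2.19 and -1.86 in WT and at -2.99, -2.23 and -2.17 in Per3-/-. The medians were close, and the knockout group reached lower because of 3 blocks below the WT range, those of mice 6, 7 and 8. The Kiss1 difference was -0.21 ± 0.11 (SE; interval -0.45 to 0.02; unadjusted p = 0.073 and adjusted p = 0.991 by limma). It was -0.13 without Per3-/- mouse 7, the lowest block. It was negative on all 4 slides, from -0.57 to -0.05. With the slide as a block the unadjusted p was 0.047 and the adjusted p 0.965, and without the 2 blocks with pituitary hormone RNA these were 0.041 and 1.0.

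Gnrh1 encodes the precursor of GnRH, whose scattered neurones lie mainly in the preoptic area, at the rostral edge of a block of this kind. The Gnrh1 probe (chr14:68364473-68364532, plus strand, mm9) is shown because it covers coding sequence of the hormone itself, so the signal reads the message for GnRH directly:
Gnrh1 probe: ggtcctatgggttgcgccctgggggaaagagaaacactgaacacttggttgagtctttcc
Gnrh1 was the most variable of the 7 genes in the hypothalamus. In WT the lowest, median and highest signals were -2.28, -1.14 and -0.39, a 3.69-fold range, and in Per3-/- they were -1.59, -1.05 and -0.82, a 1.70-fold range. All 8 knockout blocks lay inside the WT range. The WT range was set by mouse 5 and mouse 2, at -2.28 and -2.03, and by mouse 1 at -0.39. WT mouse 5 is also 1 of the 2 blocks with pituitary hormone RNA. The Gnrh1 difference was 0.14 ± 0.23 (SE; interval -0.34 to 0.62) and turned to -0.01 ± 0.21 without those 2 blocks.

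None of the 7 genes was called between genotypes in the hypothalamus (limma, adjusted p under 0.05), while 17 of all 41174 probes were (0.0413%). At an unadjusted p under 0.05, 0 of the 7 passed by limma, and 0 by the methods' t-test on the same values. Without Per3-/- mouse 1, 3 of the 7 passed unadjusted by limma, against 1109 of all 41174 probes. Without both blocks with pituitary hormone RNA 2 did (Avp and Kiss1), against 1104 of all probes. In either case 0 of the 7 were called after adjustment. Of the 7 differences, 5 were negative and 2 positive, and the median difference over all probes was -0.01. The intervals bound what could have been missed: they reached 26.7% less signal for Kiss1, 23.3% less for Ghrh and 22.2% less for Avp, and 54.2% more for Gnrh1. Differences within these bounds are compatible with the values of the 8 mice per genotype.

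**Figure D2:**
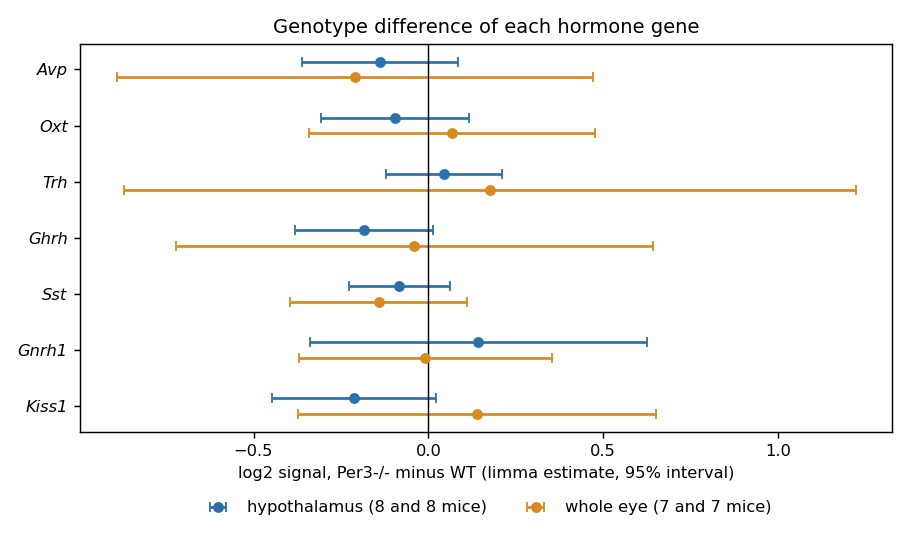
Difference in log2 signal between Per3-/- and WT mice (x axis) for each hormone gene (y axis), as limma estimates with 95% intervals, in the hypothalamus (blue, 8 mice per genotype) and the whole eye (orange, 7 per genotype). All 14 intervals include 0. They are narrowest for hypothalamic Sst (-0.23 to 0.06) and widest for Trh in the eye (-0.87 to 1.22), which was at background there.

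The spread between blocks of 1 genotype was larger for these genes than for most probes of like signal. The SD within genotypes was 0.22 for Avp, 0.21 for Oxt, 0.16 for Trh, 0.19 for Ghrh, 0.13 for Sst, 0.48 for Gnrh1 and 0.23 for Kiss1. The median SD of the 27149 probes well above background on all 16 arrays was 0.13. As a description, the Gnrh1 SD exceeded that of 97.4% of those probes and the Sst SD that of 51.4%. Among probes within 0.5 log2 units of the same mean signal, the share with a smaller SD was 98.5% for Gnrh1, 96.8% for Oxt, 96.0% for Avp, 91.0% for Ghrh, 83.3% for Sst, 83.0% for Trh and 82.9% for Kiss1. Part of the spread followed the array slides, which held 2 mice of each genotype. Slide means accounted for 51.0% of the squared deviations of Oxt and 39.7% of those of Kiss1, but for 0.822% of those of Avp. Some share lies between slides even without a slide effect, and the share over all probes was not computed. Without the 2 blocks with pituitary hormone RNA, the SD was 0.17 for Avp, of which 18.1% lay between slides, and 0.41 for Gnrh1, and the share of like probes with a smaller SD was 84.7% to 97.9% over the 7 genes. The mean Oxt signal was 4.96 on slide 1 and 4.59 on slide 4.

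Whether the knockout blocks were more variable than the WT blocks was tested after the values had been seen. In the hypothalamus, 5 of the 7 genes had the larger SD in Per3-/- mice, and the share over all probes was not counted. For Avp the SD was 0.29 against 0.10, a ratio of 2.86, with p = 0.034 by an exact two-sided permutation test of the group-centred values. For Oxt the ratio was 2.14 (p = 0.092, exact permutation test), and for Gnrh1 the WT SD was the larger, by 2.63 times (p = 0.097, exact permutation test). None of the 14 tests, over 7 genes in both tissues, passed the Benjamini-Hochberg adjustment of the exact permutation p-values (adjusted p = 0.45 for each of these 3). Without the 2 blocks with pituitary hormone RNA the Avp ratio was 1.90 and the Gnrh1 SD 0.51 in WT and 0.26 in Per3-/- mice.

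Some of the hormone genes rose and fell together from block to block. The mean of each genotype was subtracted first. Over the 16 mice, 2 of the 21 pairs of genes passed a permutation test adjusted over the pairs. Of the 21 correlations, 17 were above 0, and the share over pairs of other probes was not counted. Oxt and Ghrh had a Pearson's r of 0.76 (permutation p = 0.00052, adjusted 0.0055) and a Spearman's rho of 0.67 (p = 0.0076, adjusted 0.069). The r was 0.61 within the WT mice and 0.91 within the Per3-/- mice. It was 0.67 without the 2 mice farthest from the Oxt median, 0.82 with the slide means taken out, and 0.80 without the 2 blocks with pituitary hormone RNA. Both genes were at their lowest in WT mouse 6 among WT blocks (4.63 for Oxt and 0.82 for Ghrh) and in mouse 7 among Per3-/- blocks (4.36 and 0.68).

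Gnrh1 and Kiss1 had r = 0.65 (permutation p = 3.0e-05, adjusted 0.00063) and rho = 0.60 (p = 0.0098, adjusted 0.069). It was seen within both genotypes, with r = 0.86 in WT and r = 0.85 in Per3-/- mice. Without the 2 mice farthest from the Gnrh1 median, WT 2 and WT 5, r was 0.70, and without the 2 blocks with pituitary hormone RNA it was 0.68. WT mouse 1 had the highest signal of both genes (-0.39 for Gnrh1 and -1.86 for Kiss1), and Per3-/- mouse 7 had the lowest of its genotype in both (-1.59 and -2.99). By rank alone, neither this pair nor that of Oxt and Ghrh passed the adjustment.

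The neighbours Avp and Oxt had r = 0.60, which did not pass (permutation p = 0.056, adjusted 0.20). This value leaned on knockout blocks 1 and 3, without which r was 0.35. It was 0.12 within WT and 0.68 within Per3-/- mice, and 0.32 without the 2 blocks with pituitary hormone RNA. With the slide means taken out it was 0.81. The permutation test of these values, with an adjusted p of 0.0018, moved mice across slides. Its p is therefore too small and is not read as a pass. Oxt and Kiss1 (r = 0.67, permutation p = 0.013, adjusted 0.091), Avp and Sst (r = 0.57, adjusted 0.20) and Avp and Ghrh (r = 0.50, adjusted 0.20) did not pass either. For Trh, r was between -0.42 (Sst) and 0.20 (Avp) to the other 6 genes, but these values leaned on Per3-/- mouse 7. Without that mouse r was 0.63 for Trh and Oxt and 0.53 for Trh and Kiss1, with adjusted p of 0.10 and 0.15 by the permutation test.

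**Figure D3:**
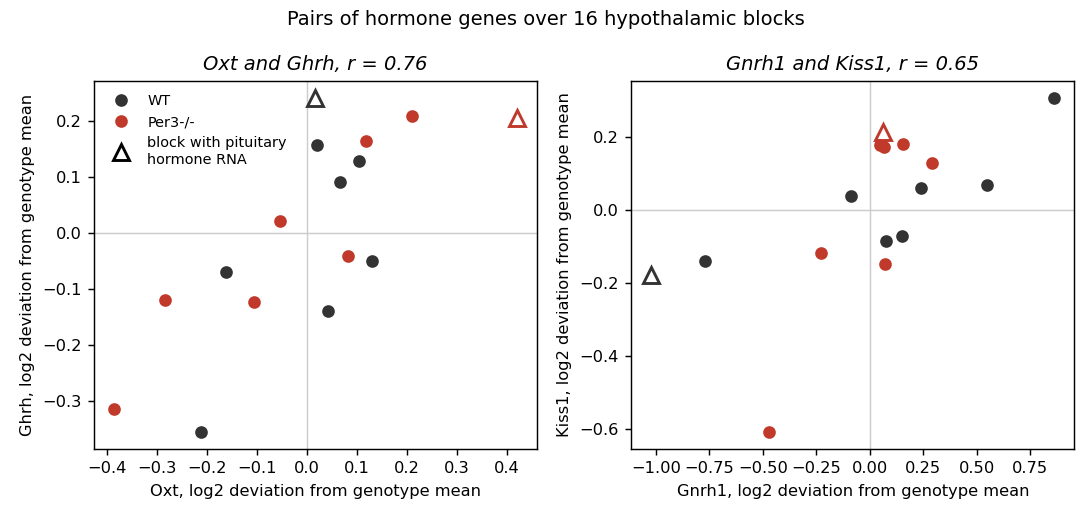
Deviation of the log2 signal from the genotype mean for Oxt (x) and Ghrh (y), left, and for Gnrh1 (x) and Kiss1 (y), right. Each point is 1 hypothalamic block (8 WT, 8 Per3-/-), and open triangles are the 2 blocks with pituitary hormone RNA. Both pairs rise together (r = 0.76 and r = 0.65), and the lowest Kiss1 value is that of Per3-/- mouse 7.

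Region markers of the block moved with some of these genes, and the values are given here as a description over the same 16 mice. The preoptic list (Gal, Hmx2 and Hmx3, all 3 well above background on every array) summed to between 3.09 and 3.55 in WT and between 3.08 and 3.61 in Per3-/- blocks. Hmx3 read -1.09 to -0.44 and the brighter Hmx2 probe -2.77 to -2.15, far below that sum, so the sum mostly reads Gal. The summed signal of this list followed Kiss1 (r = 0.81), Oxt (r = 0.65) and Gnrh1 (r = 0.57). Without the 2 blocks with pituitary hormone RNA, r was 0.82, 0.61 and 0.75. Avp followed the pituitary list (r = 0.64) and the arcuate list, which holds Pomc (r = 0.70), but r was -0.07 and -0.03 without those 2 blocks. For Oxt and the arcuate list r was 0.66, and 0.72 without them. Trh ran against the oligodendrocyte list (r = -0.66, and -0.65 without them). For Gnrh1 and Kiss1 against the suprachiasmatic list r was -0.13 and -0.29. Some values leaned on Per3-/- mouse 7. Without that mouse r with the preoptic list was 0.72 for Kiss1, 0.50 for Oxt and 0.52 for Gnrh1, and 0.67 for Trh instead of 0.11. With the oligodendrocyte list it was then -0.51 for Trh, and -0.56 for Oxt instead of -0.11. The part that the cutting of the block plays in any of these relations was not tested.

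**Figure D4:**
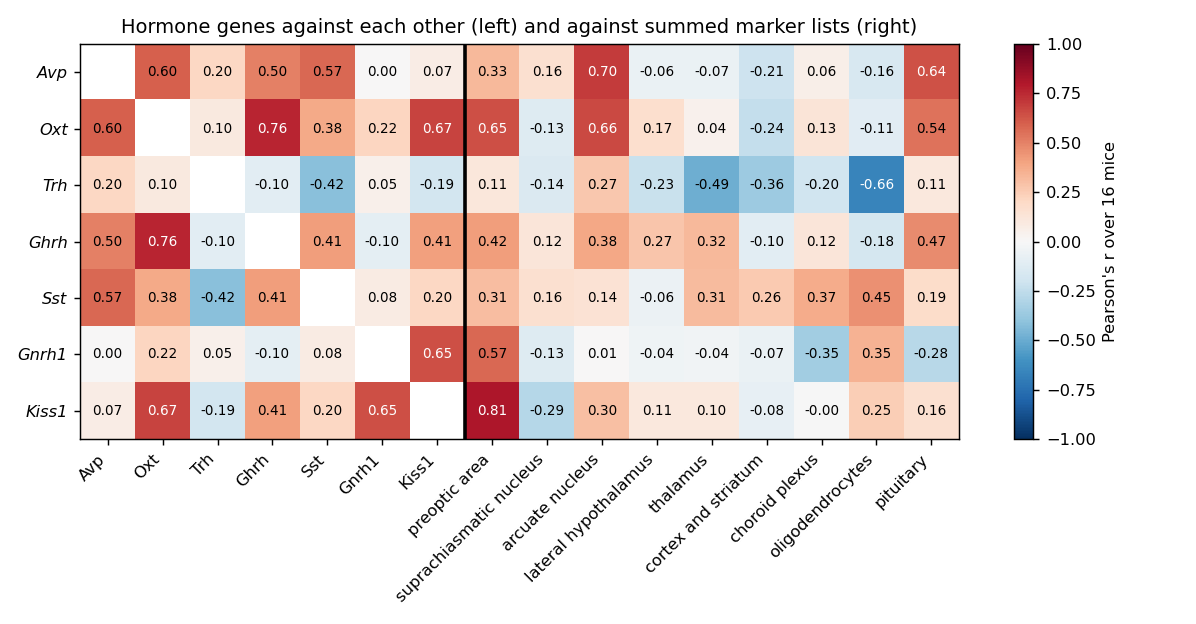
Pearson's r over 16 hypothalamic blocks, after subtracting genotype means, between the hormone genes (rows) and each other (left of the black line) or the summed signal of marker gene lists (right). Red is positive and blue negative. The darkest cells are Oxt with Ghrh (0.76) and Kiss1 with the preoptic list (0.81), and Trh has its strongest value against the oligodendrocyte list (-0.66).

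The genes whose pattern was most like that of a hormone gene were named by r over the 16 mice, from the 27149 probes measured above background in each block. Each such list is the top of a search over many probes and the points share the same arrays, so these are descriptions without a test. Without the 2 blocks with pituitary hormone RNA, r was 0.79 or more for each of the 21 genes named. Kiss1 was followed most closely by Hmx2 (r = 0.96), a homeobox gene of the developing and adult hypothalamus that is also on the preoptic list and whose other probe, well above background on 10 of 16 arrays, had r = 0.35. It was followed next by Dgkk (r = 0.94), a diacylglycerol kinase, and AW551984 (r = 0.93). Gnrh1 was followed by Cela1 (r = 0.83), Nub1 (r = 0.83) and Pnoc (r = 0.81), the gene of the neuropeptide precursor prepronociceptin. For Oxt the closest were Cbx6-Nptxr (r = 0.93), 3110040N11Rik (r = 0.92) and Ero1lb (r = 0.92), an oxidase of disulphide formation in the endoplasmic reticulum. The closest to Avp were Rgl3, Nfkb2 and Shkbp1 (r = 0.92, 0.92 and 0.91), and the closest to Ghrh were Snx10, Clybl and Lrrc3 (r = 0.87, 0.86 and 0.85). Sst was followed by Rnf43 (r = 0.90), Gm98 (r = 0.86) and Olig1 (r = 0.86), a transcription factor of oligodendrocytes. Trh was followed by Psme4, Evi5 and Csk (r = 0.86, 0.83 and 0.83), and by 0.77, 0.75 and 0.75 without Per3-/- mouse 7. Some named genes had another probe well above background on all 16 arrays. For these r was 0.48 and 0.30 (Psme4), 0.19 (Evi5), 0.19 (Csk), 0.15 (Nub1), 0.43 (Clybl) and 0.47 (Gm98). It was 0.77 (Cbx6-Nptxr), 0.64 (Ero1lb), 0.63 (Lrrc3), 0.70 (Cela1), 0.76 (Pnoc) and 0.72 (AW551984) for the others, so several patterns rest on 1 probe.

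In the eye, every one of the 7 hormone genes was far lower than in the hypothalamus, and no eye array reached the lowest hypothalamic array for any of them. All 7 were called lower in the eye of WT mice by limma. The tissues lay on separate slides, 4 for each tissue and numbered within it. A difference between tissues and a difference between their slides therefore cannot be told apart. The share of all 41174 probes called in this comparison was 75.1%, with 33.4% lower and 41.7% higher in the eye, so a call in this comparison is common, and the sizes of the differences are described below.

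Avp was bright in the hypothalamus and dim in the eye. In the WT eye its signals ran from -6.57 through a median of -5.44 to -4.49, and in the Per3-/- eye from -6.59 through -5.64 to -4.86. It was well above background on 6 of 7 WT and 5 of 7 knockout eye arrays, so what was measured there lay near the limit of the array. The WT eye was 9.99 ± 0.23 log2 units below the hypothalamus (SE; adjusted p = 2.4e-25 by limma). With the lowest signal well above background in place of a dimmer Avp signal, the hypothalamus was at least 991-fold higher in WT. This bound holds only on this scale and with this background treatment. Oxt, in contrast, was above background on all 14 eye arrays, at -3.40 to -2.47 in WT and -3.37 to -2.31 in Per3-/- eyes. It was 7.79 ± 0.15 units (SE) and 222-fold lower in the WT eye than in the hypothalamus.

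Trh was not well above background on any Per3-/- eye array and was so on 1 of 7 WT arrays. On the scale used here the Trh signal was therefore at least 124-fold higher in the hypothalamus than in the eye of both genotypes, taking for each eye array the higher of the probe's own signal and the lowest signal well above background. The measured Trh means were -7.82 in the WT and -7.64 in the Per3-/- eye. Somatostatin mRNA was measured on every eye array, where Sst has long been known in amacrine cells of the retina. Sst ran from -2.19 to -1.69 in WT and from -2.38 to -1.68 in Per3-/- eyes, 5.21 ± 0.09 log2 units (SE) and 37.0-fold below the WT hypothalamus.

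Ghrh, Kiss1 and Gnrh1 were also well above background on all 14 eye arrays, at low signal. Ghrh was at -3.26 to -1.65 in WT and -3.36 to -1.72 in Per3-/- eyes. Kiss1 was at -5.71 to -4.39 and -5.58 to -4.35, and Gnrh1 at -4.26 to -3.39 and -4.35 to -3.38, in the same order of genotypes. These 3 genes had the smallest gaps between tissues, with the WT hypothalamus 12.6-fold higher for Ghrh, 7.36-fold for Kiss1 and 5.60-fold for Gnrh1. Another background correction (normexp with an added constant, then quantile normalization) gave smaller differences between eye and hypothalamus for the dimmest probes, at -8.52 instead of -9.99 log2 units for Avp and -2.13 instead of -2.88 for Kiss1. For Trh it gave -5.04. For both Avp and Trh these gaps were smaller than the bounds above, so the sizes of both differences depend on how background is treated.

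**Figure D5:**
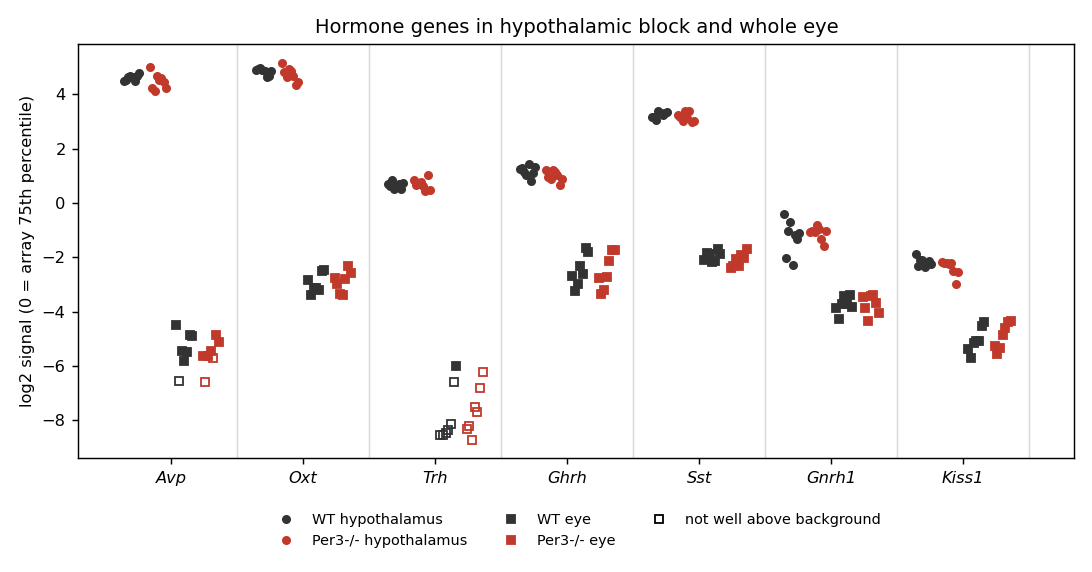
Log2 signal (y axis, 0 = the array's 75th percentile) of each hormone gene (x axis) on every array of the hypothalamic block (circles) and the whole eye (squares), WT in black and Per3-/- in red. Open symbols were not well above background. Each gene is lower in every eye than in any hypothalamic block, and Trh and some Avp values in the eye are at background. Levels of different genes are not comparable, since the probes differ.

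Eye signals of the hormone genes followed the array slides. The mean Ghrh signal was -3.20 on slide 2 and -1.72 on slide 4, and slide means accounted for 94.0% of its squared deviations within genotypes. For Trh this share was 91.7%, for Kiss1 89.2% and for Oxt 81.3%, and it was lower for Avp (62.8%), Sst (55.7%) and Gnrh1 (49.5%). Both genotypes lay on each slide, with 1 mouse of each on slide 1 and 2 of each on the others. The share over all probes was not computed, so whether these shares are particular to the hormone genes was not tested. What in the slides or in the eyes on them gives the difference between slides was not tested either.

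None of the 7 genes was called between genotypes in the eye, where limma called 8 of 41174 probes (0.0194%). At an unadjusted p under 0.05, 0 of the 7 passed by limma and 0 by the methods' t-test, against 743 and 835 of all probes. The differences ran from -0.21 ± 0.32 for Avp to 0.18 ± 0.49 for Trh (SE, n = 7 each). With the slide as a block the standard errors fell, to 0.10 for Ghrh, 0.10 for Kiss1, 0.10 for Oxt and 0.16 for Trh, and the difference was then -0.04 for Ghrh, 0.14 for Kiss1 and 0.07 for Oxt, with adjusted p-values of 1.0 by limma. The genotype difference was not called to differ between the tissues for any of the 7 genes, against 2 of 41174 probes (0.00486%). At an unadjusted p under 0.05, 0 of the 7 passed this limma contrast, against 797 of all probes. The largest such contrast was that of Kiss1, 0.35 ± 0.26 (SE), where the knockout mean was lower in the hypothalamus (-2.38 against -2.17) and higher in the eye (-4.91 against -5.05).

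The wider hormone pathway was read with 49 probes of 35 genes of a list of 36, for receptors, binding and degrading proteins, related ligands, processing enzymes and transcription factors. In the hypothalamus, 0 of the 49 probes were called between genotypes by limma. At an unadjusted p under 0.05, 1161 of all 41174 probes passed, and 1 of the 49 did. This was Trhr2, a receptor for TRH, at -4.87 to -4.38 in WT and -4.97 to -4.61 in Per3-/- blocks. Its difference was -0.17 ± 0.08 (SE), with an unadjusted p of 0.043 and an adjusted p of 0.991 by limma. The methods' t-test called 0 of the 49 and gave 2 at an unadjusted p under 0.05, against 1255 of all probes. Without Per3-/- mouse 1, and likewise without both blocks with pituitary hormone RNA, limma gave 4 at an unadjusted p under 0.05 and called 0. Of all 41174 probes, 1109 and 1104 passed unadjusted in these 2 fits. The median difference over these probes was -0.04, and over all probes it was -0.01. By group, the knockout mean was lower for 10 of 18 receptor probes, 13 of 17 processing probes, 4 of 6 of binding or degrading proteins, 2 of 4 of related ligands and 3 of 4 of transcription factors. The 17 processing probes are of 9 genes. The share of all probes with a lower knockout mean was not counted, so these counts are a description. In the eye, 0 of the 49 were called between genotypes by limma and 0 passed at an unadjusted p under 0.05, against 743 of all probes.

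Between tissues of WT mice, 39 of the 49 pathway probes were called, 32 lower and 7 higher in the eye, where 75.1% of all probes were called. The share of the pathway probes called in either direction was thus close to the background. By direction, 33.4% of all probes were called lower and 41.7% higher in the eye, so the pathway calls lay more on the lower side. The median difference over these probes was -0.90, and over all probes 0.15. All 17 probes of the enzymes and granins that make up the peptide secretory pathway were lower in the eye, among them Pcsk2 (-4.93 ± 0.07, SE) and Pcsk1 (-4.53 ± 0.13), the proteases that cut prohormones, and both Pcsk genes had a second probe that was lower too. Arnt2 (-4.01 ± 0.07) and Pou3f2 (-3.96 ± 0.13), transcription factors needed for the neurones of the paraventricular and supraoptic nuclei, were also lower. Sim1, another such factor, was called lower too, and none of the eye arrays read it well above background. The fourth factor listed, Otp, was well above background in neither tissue and was not called. Of the 18 receptor probes, 7 were called lower and 5 higher in the eye, with Trhr at -3.40 ± 0.09 and Sstr3 at 2.12 ± 0.15. Cort, the gene of the somatostatin-related peptide cortistatin, was higher in the eye, by 2.62 ± 0.34, while Sst itself was lower. The 2 probes of Sstr4 went in opposite directions (-2.11 and 1.24), so no direction is given for that gene.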

How the data were processed

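The authors extracted spot intensities from 1-colour (Cy3) arrays of 60-base probes with Agilent's Feature Extraction software, and the deposited processed intensity is background-subtracted, on a linear scale and not normalized between arrays. The deposited log2 values of the series were an alternative. These are relative to the 75th percentile and centred per probe within a tissue. Here, log2 of the processed intensity minus that of the array's 75th percentile was used, without control spots and spots marked uneven or as outliers. Positions are those in the hypothalamus files (mm9), and promoters are those of RefSeq (GRCm38.p6). Genotypes and tissues were compared with limma 3.58.1 in R 4.3.3 over all 41174 probes, with Benjamini-Hochberg adjustment. The settings were tested on simulated data. Correlations used 100000 permutations within genotypes, two-sided. All probes of the member genes are named, pathway probes where called or of lowest p, and the 3 genes most like each member. The members and lists were chosen with earlier results of these data known. Replicate numbers were not used to pair genotypes: correlations of the deviations of same-numbered mice were between -0.204 and 0.396 for hypothalamic blocks, and between 0.00138 and 0.679 for eyes. The precision is limited by the number of arrays.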

Additional observations from a re-analysis of the deposited data

Results flagged for a closer look

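In 28 groups of 7 or 8 arrays (7 genes in 4 groups), 1 sample lay far from the rest of its group: Kiss1 in the hypothalamus of Per3-/- mouse 7, at -2.99, where the next lowest mouse was at -2.53. The gap was 0.56 of the range of the 8 mice. Chance gives such a value in about 1 in 20 groups. In the same block Gnrh1 (-1.59), Oxt (4.36), Ghrh (0.68) and Sst (2.99) were the lowest of their genotype and Trh (1.03) the highest. Single marker genes of hypothalamic regions were extreme there too, with the highest Npy (2.37, next 1.42) and Vip (-0.18, next -0.88) of the 16 blocks and the lowest Hmx3 (-1.09). They were picked after the values had been seen, from 5 arcuate, 7 suprachiasmatic and 3 preoptic genes with a probe. The other genes of these lists are not all given, so the regions as a whole are not described. Pomc, on the arcuate list with Npy, went the other way and was the lowest of the 16 blocks (1.71, next 2.36). Their part in the Kiss1 value was not tested.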

How the results depend on the processing

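All 7 hormone genes stayed without a call between genotypes in the hypothalamus, in the eye and for the difference between tissues, and all 7 were called lower in the eye than in the hypothalamus, in each alternative run for the comparison. These were quantile normalization, normexp background correction, only probes well above background, slide as a block, replicate block, leaving out each mouse and, within a tissue only, array weights, the methods' t-test and the deposited log2 values. Avp and Trh could not be tested in the eye when only probes well above background were kept. The replicate block lowered the count of probes called in the hypothalamus from 17 to 5 and in the eye from 8 to 1, and changed no call of the hormone genes or of the 49 pathway probes. The replicate numbers are not known to mark a shared litter or day. Between tissues, samples of a genotype with the same number carry the same animal number in the deposited names, and their deviations correlated from -0.111 to 0.189. With that mouse as a block (correlation 0.059) the calls of the hormone genes did not change. Quantile normalization moved the median difference of all probes between the tissues from 0.15 to -0.07. The count of correlated pairs stayed at 2 or 3, where the test with the slide means taken out moved mice across slides and gives p-values that are too small.

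Signs turned only for differences that had not passed the test, and the cause was not tested. Without the 2 blocks with pituitary hormone RNA, an alternative chosen after seeing the data, the Gnrh1 difference was -0.012 in the hypothalamus, and the contrasts between tissues were 0.00165 for Avp and 0.00351 for Gnrh1. With normexp these contrasts were 0.080 for Avp and -0.041 for Trh. With array weights Ghrh in the eye was 0.00468. Leaving out 1 mouse moved Trh in the hypothalamus between -0.00277 and 0.083, and Gnrh1 there between -0.00292 and 0.27. In the eye it moved Oxt between -0.026 and 0.15, Trh between -0.061 and 0.48, Ghrh between -0.17 and 0.10, and Gnrh1 between -0.095 and 0.091. It moved the contrast between tissues of Avp between -0.27 and 0.098, and that of Trh between -0.11 and 0.43.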
